A study of Mus musculus with 12 samples.

Results

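VH segments whose framework 3 ends in tyrosine, phenylalanine and cysteine (YFC) were examined in the immunoglobulin heavy chain (IGH) repertoire of splenic B cells. All sequences had been amplified with a primer for the J558 VH family. A translated sequence was a member when its residues 21 to 23, counted from the first residue after the trimmed VH primer, were Y, F and C, when it held no stop and when the J motif (tryptophan, glycine, then glutamine, alanine or threonine, then glycine and threonine) followed. In all, 96232 of the 605283 unique translations of 12 libraries were members, and 449740 ended in tyrosine, tyrosine and cysteine (YYC), the ending they were compared with. Both endings together made up nearly every stop-free translation with a J motif, since other residues at these positions were found in 0.73% to 1.69% of a library. A further 2021 translations ended in YFC but held a stop, and 3870 ended in YFC but lacked the J motif, and neither kind was counted.

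All libraries came from female *MRL-lpr* mice, labelled MRL/lpr SLE prone, which carry the *Fas* lpr mutation and develop a disease like systemic lupus erythematosus. The mice were 14 weeks old, and 6 had received control SMO and 6 LFPRLR SMO by subcutaneous minipump. LFPRLR SMO is a splice-modulating morpholino oligomer that blocks inclusion of *Prlr* exon 10 and so knocks down the long form of the prolactin receptor. B cells were isolated from spleen with microbeads, and IGH transcripts were amplified from a J558 VH primer to the Cμ constant region. Other VH families were thus not targeted, and no cell type marker was measured. Whether every sequence belongs to J558 was not tested. Each mouse gave 1 library.

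A heavy chain variable region is assembled from a V, a D and a J segment, and the joins form the third complementarity-determining region (CDR3), the most variable loop of an antibody. Framework 3 of VH closes with a conserved cysteine that forms the disulphide bond of the domain and marks the start of CDR3. The residue before this cysteine is usually tyrosine and in some VH genes phenylalanine. It lies ahead of the joint, so it is set by the VH gene that was used, unless somatic mutation, the amplification or the sequencing changed it. J558 (Ighv1) is the largest mouse VH family, and RefSeq lists 92 Ighv1 entries on chromosome 12 of GRCm38.p6, of which 60 are V segments and 32 pseudogenes. The sequences of these genes were not used here, so VH ends are described by their residues and not by gene names.

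Libraries held 130635 to 227202 reads with 1 exception, the library of LFPRLR SMO replicate 6 with 627 reads and 113 YFC translations. The other 11 libraries held 4911 to 11794 YFC translations each. Libraries fell into 2 sets by their Cμ end, of which a second form was present in 33.1% to 40.1% of the sequences of set 1 and in at most 2.26% of set 2, with 3 mice of each group in either set. Of the 50 commonest V-D-J sequences 44 were common to replicates 5 and 7 of control SMO, 34 to its replicates 4 and 8, and 34 to replicates 4 and 5 of LFPRLR SMO, although the labels give them as different mice. The measures compared between groups and between endings are also given with each pair averaged. No molecular identifiers are described, so reads and unique sequences are not independent molecules and intervals cover counting error only.

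The commonest nucleotide version of each leading VH end shows what separated both endings. The sequences start at the first base after the primer and close with the cysteine codon, and capitals mark codons 21 and 22, which encode the tyrosine and the variable phenylalanine or tyrosine.
YFC end 1: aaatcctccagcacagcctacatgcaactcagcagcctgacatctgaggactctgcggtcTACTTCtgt
YFC end 2: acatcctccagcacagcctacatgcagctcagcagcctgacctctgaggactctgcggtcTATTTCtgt
YFC end 3: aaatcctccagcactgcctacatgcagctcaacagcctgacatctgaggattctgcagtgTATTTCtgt
YFC end 4: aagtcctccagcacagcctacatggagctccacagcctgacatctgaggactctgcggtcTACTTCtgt
YFC end 5: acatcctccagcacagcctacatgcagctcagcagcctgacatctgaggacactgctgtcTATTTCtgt
YYC end 1: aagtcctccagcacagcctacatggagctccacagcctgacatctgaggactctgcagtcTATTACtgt
YYC end 2: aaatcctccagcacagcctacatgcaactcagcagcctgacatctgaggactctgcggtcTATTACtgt

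A VH end here is the run of residues 1 to 23, and ends were numbered by their mean share over the 12 libraries. Relative to YFC end 1, YFC end 2 carried K1T, YFC end 3 S11N, YFC end 4 Q9E and S11H, and YFC end 5 K1T and S18T, with the residue of end 1 first. YYC end 2 had the same residues 1 to 20 as YFC end 1, and YYC end 1 the same as YFC end 4. In bases, counted from 1 at the start of the lines above, the leading version of YFC end 1 differed from that of YYC end 2 by C63T and T65A, with the YFC base first. The leading version of YFC end 4 differed from that of YYC end 1 by G57A, C63T and T65A. YFC end 3 stood farther from its YYC counterpart, with 5 differences (C6T, T15A, T51C, G60C and T65A).

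YFC endings made up 13.1% to 23.1% of the YFC and YYC translations of a library, and their share did not differ between control SMO and LFPRLR SMO beyond the spread between mice. Of the YFC and YYC translations in control SMO-treated mice, 17.3% ended in YFC in replicate 3, 19.1% in replicate 4, 16.9% in replicate 5, 16.2% in replicate 7, 20.6% in replicate 8 and 15.1% in replicate 9. In LFPRLR SMO-treated mice the share was 13.1% in replicate 3, 14.4% in replicate 4, 20.8% in replicate 5, 23.1% in replicate 6, 21.6% in replicate 7 and 20.7% in replicate 8. Thus the LFPRLR SMO group held both the lowest and the highest shares, with replicates 3 and 4 below every control library and the other 4 above every control library. The 95% Wilson interval of replicate 6 ran from 19.5% to 27.0%, and in the other libraries the bounds lay within 0.5 points of the share. The medians were 17.1% for control SMO and 20.7% for LFPRLR SMO, a difference of 3.68 points (two-sided exact Mann–Whitney *U* test, p = 0.394, adjusted p = 0.630 over the 8 measures compared between groups), and 4 of 6 libraries from LFPRLR SMO were higher than the control median. With each pair of libraries that share sequences averaged, the difference was 3.81 points (exact p = 0.286). Within library set 1 the difference was −1.74 points and within set 2 it was 3.52 points, with 3 mice of each group in each set, where an exact p cannot fall under 0.1.

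Weighted by reads, the YFC share was 15.01% to 22.1% in control SMO-treated mice and 11.9% to 28.0% in LFPRLR SMO-treated mice. In LFPRLR SMO replicates 7 and 8 YFC sequences held 28.0% and 27.0% of the reads, 6.43 and 6.35 points more than their share of translations. In the other 10 libraries the difference between both shares lay between −1.22 and 1.77 points. Over the 12 libraries YFC sequences held 1.41 ± 2.52 points more of the reads than of the translations (SD, exact sign-flip test, p = 0.061, adjusted p = 0.1), with a positive difference in 8 of 12, and 1.57 points with the pairs averaged (exact test, adjusted p = 0.344). The difference passed the same exact test among translations with the same residues 1 to 20 (4.26 points, adjusted p = 0.0026), without the 10 CDR3s with most reads of each library (0.773 points, adjusted p = 0.0381) and without LFPRLR SMO replicate 3 (1.65 points, adjusted p = 0.0488). Without YFC end 3 it was 0.669 points. A translation ending in YFC was read 1.16 to 4.81 times on average and one ending in YYC 1.15 to 4.58 times.

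**Figure D1:**
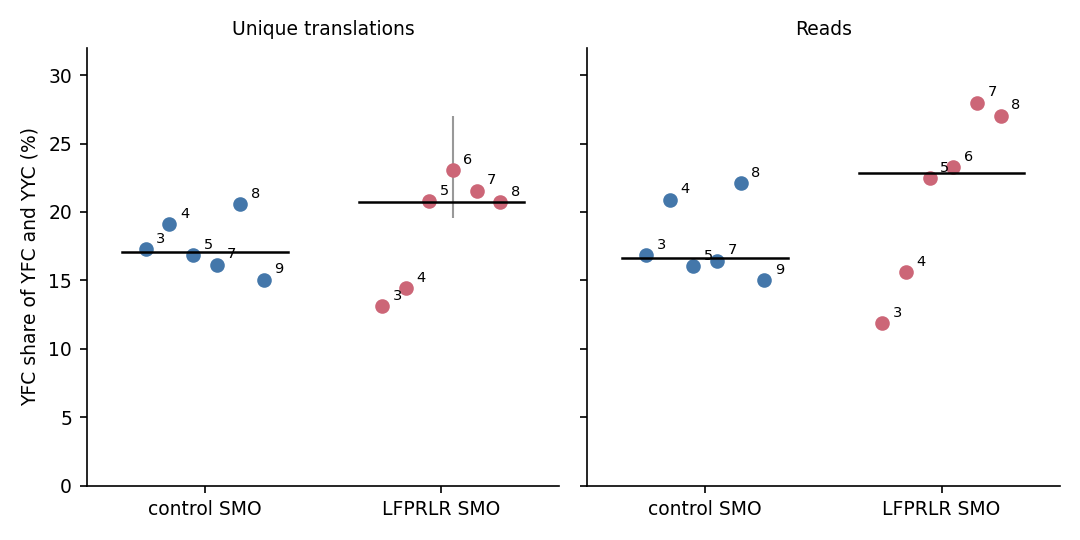
YFC share of the YFC and YYC sequences of each library, in percent of unique translations (left, grey bars are 95% Wilson intervals) and of reads (right). Points are libraries with their replicate number and black lines are group medians, and in both panels LFPRLR SMO replicates 3 and 4 sit lower than the other 4 libraries of their group.

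A few VH ends carried most YFC sequences. YFC end 1 alone accounted for 32.4% to 52.2% of the YFC translations of a library, and the 5 commonest YFC ends for 63.8% to 83.2%. YYC sequences were spread more widely, with 9.48% to 16.4% on their commonest end and 34.5% to 53.6% on their 5 commonest. As a share of all YFC and YYC translations, YFC end 1 ranged from 4.41% to 12.04% over the libraries, with a median of 6.64% in control SMO-treated and 7.74% in LFPRLR SMO-treated mice. YFC end 2 ranged from 2.39% to 3.97%, YFC end 3 from 0.796% to 2.86%, YFC end 4 from 0.204% to 0.914% and YFC end 5 from 0.247% to 0.709%. The highest value of end 1, of end 3 and the lowest of end 4 were those of LFPRLR SMO replicate 6. YYC end 1 held 8.05% to 13.6% and YYC end 2 held 7.60% to 10.8% of the same translations.

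How often a VH end closed with YFC varied with the residues ahead of it. Among the 24 combinations of residues 1 to 20 that made up at least 0.5% of the translations on average, 6 ended in YFC in at least 20% of their translations and 17 in under 10%. These 6 combinations carried 70.6% of all YFC translations. The residues of YFC end 1 were followed by YFC in 34.3% to 53.6% of their translations, those of YFC end 2 in 40.9% to 62.96% and those of YFC end 3 in 14.0% to 43.8%. The rarer residues of YFC end 5 closed with YFC in 61.6% of translations on average (32.4% to 100%, the highest in few sequences). By contrast, the residues of YFC end 4, which are also those of the commonest YYC end, closed with YFC in 1.59% to 7.79%. The highest values for the residues of YFC ends 1, 2 and 3 and the lowest for those of YFC end 4 were from LFPRLR SMO replicate 6. That library held only 59, 17, 14 and 1 translations on these YFC ends. The medians over the libraries were 43.4%, 53.3%, 21.4% and 5.66%.

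**Figure D2:**
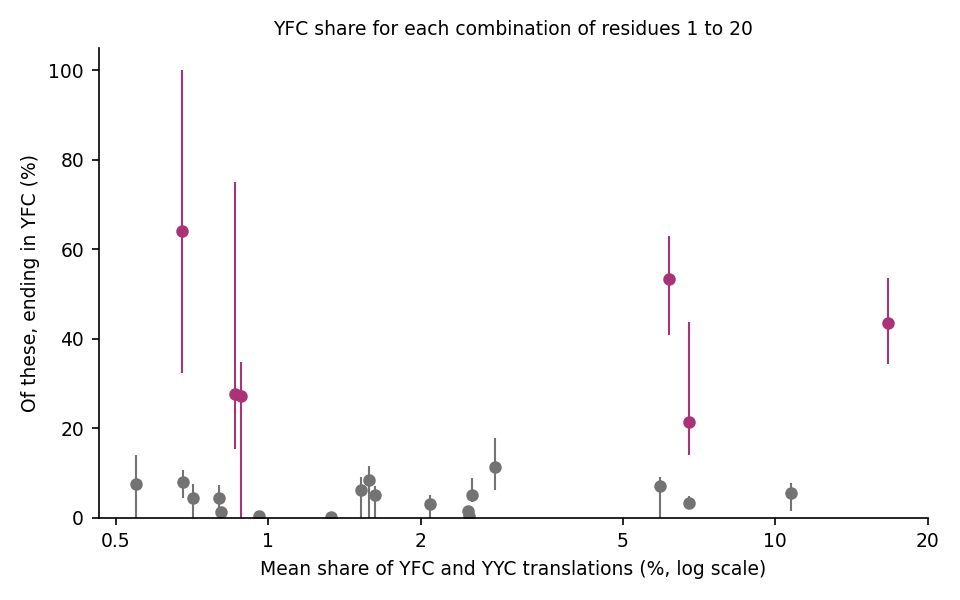
Each point is a combination of residues 1 to 20, placed by its mean share of YFC and YYC translations over 12 libraries (log axis) and by the median percentage of its translations that ended in YFC, with bars from the lowest to the highest library. The 6 purple combinations averaged at least 20% YFC and the others under 12%.

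No VH end passed the test for a difference in share between the groups. Of 71 VH ends with a mean share of at least 0.1%, 14 ended in YFC, and 0 of 71 (0%) had an adjusted p under 0.05 in exact Mann–Whitney *U* tests. At an unadjusted p under 0.05 there were 3 (4.23%), all of them ending in YYC. Among YFC ends the smallest unadjusted exact p was 0.0931, for an end that carried M8I relative to YFC end 1, with a median of 0.211% in control SMO-treated and 0.346% in LFPRLR SMO-treated mice.

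At the level of bases, phenylalanine 22 was written almost exclusively as TTC. The codon TTT at this position was found in 0.068% to 1.67% of the unique YFC nucleotide sequences of a library. Tyrosine 21 ahead of it was TAT in 48.4% to 74.2% and TAC in 24.1% to 51.3%, whereas in YYC sequences the same tyrosine was TAC in only 0.123% to 1.19%. The base before the variable codon was therefore C in part of the YFC sequences and in few YYC sequences. With the first 60 bases of YFC end 1 as shown above, the pair TAC TTC made up 3.25% of the YFC and YYC nucleotide sequences on average and the pair TAT TAC 3.08%. The intermediate pairs were rarer, with TAT TTC at 0.202% and TAC TAC at 0.0039%. With the first 60 bases of YFC end 3, TAT TTC made up 0.979% and the YYC pair TAT TAC 0.010%.

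The use of TAC or TAT at codon 21 of YFC sequences separated the groups, a feature that was noticed after the values were seen and is given as a description with no test. In control SMO-treated mice TAC was found in 32.05% of the unique YFC nucleotide sequences in replicate 3, 36.5% in replicate 4, 24.1% in replicate 5, 25.1% in replicate 7, 37.2% in replicate 8 and 30.5% in replicate 9. In LFPRLR SMO-treated mice it was found in 41.5% in replicate 3, 39.4% in replicate 4, 42.1% in replicate 5, 39.7% in replicate 6, 51.3% in replicate 7 and 47.6% in replicate 8. Every LFPRLR SMO library thus lay above every control library, with medians of 41.8% and 31.3% and a difference of 10.5 points, or 10.2 points with the pairs of libraries averaged. Of the 15 base positions of YFC ends that varied (commonest base at most 95%), 2 had groups that did not overlap (13.3%), namely base 63, which is this codon, and base 27, the last base of codon 9. At base 27 the ranges nearly touched, with G in 64.96% to 74.2% in control SMO-treated and 55.4% to 64.94% in LFPRLR SMO-treated mice. Base 27 is A in both TAC versions among the 10 commonest YFC versions and G in the other 8, so the positions vary together. None of the 116 single nucleotide versions of VH ends with a mean share of at least 0.1%, YFC and YYC alike, had groups that did not overlap (0%).

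The difference in codon 21 was seen in both library sets, since the lowest LFPRLR SMO value exceeded the highest control value over all 12 libraries. With each unique CDR3 counted once, TAC was found in 30.6% to 37.3% in control SMO-treated and in 38.9% to 44.7% in LFPRLR SMO-treated mice, so the groups lay closer together and still did not overlap. Weighted by reads the ranges were 16.4% to 40.7% and 42.7% to 61.9%. Within YFC end 1 they were 41.7% to 52.6% and 53.9% to 62.3%. Without YFC end 1, or without the 10 CDR3s with most reads of each library, the groups overlapped, with 13.6% to 24.8% against 14.5% to 45.3% and with 28.3% to 36.8% against 35.3% to 48.1%, respectively. In both cases the lowest LFPRLR SMO value was that of replicate 6, whose 113 YFC translations give little precision. Among YFC sequences those with TAC were on YFC end 1 in 47.0% to 82.6% and those with TAT in 25.6% to 40.01%.

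**Figure D3:**
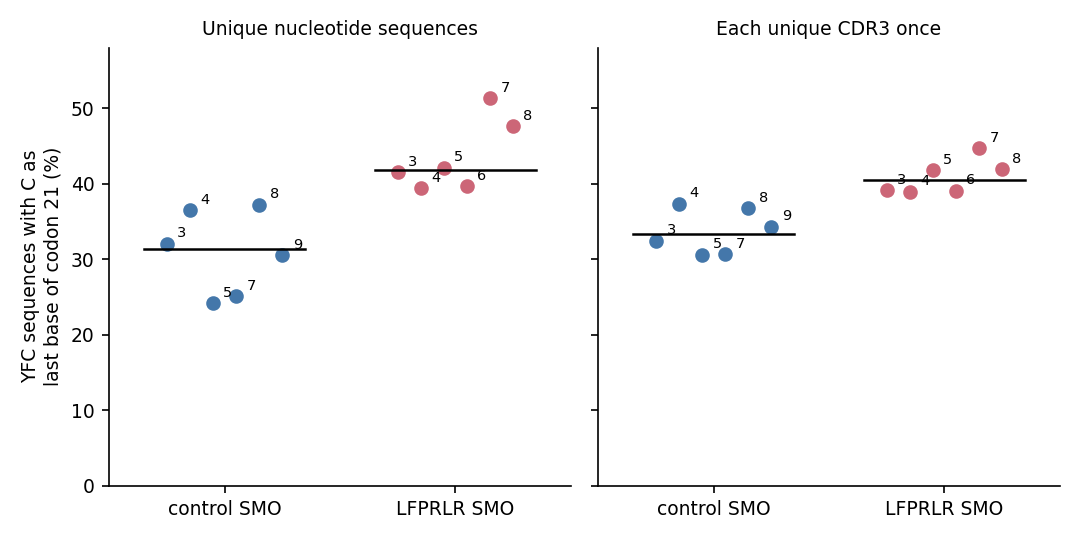
Percentage of YFC sequences with C as the last base of codon 21 in each library, over unique nucleotide sequences (left) and with each unique CDR3 counted once (right). Points are libraries with their replicate number and black lines are group medians, and in both panels all 6 LFPRLR SMO libraries lie above all 6 control SMO libraries.

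The J segments joined to YFC ends differed from those joined to YYC ends within the same library. J segments were told apart by the residues of their motif, with J1 holding alanine or threonine after the first glycine, and J2, J3 and J4 holding threonine, leucine or serine after the motif. J2 made up 29.7% to 46.0% of YFC and 28.6% to 34.7% of YYC translations, and J3 made up 16.8% to 28.1% of YFC and 26.8% to 31.1% of YYC translations. J3 was lower behind YFC in 12 of 12 libraries, by between −11.3 and −1.69 points and by −5.23 ± 2.70 points on average (SD, n = 12, two-sided exact sign-flip test, p = 4.9e-04, the smallest that 12 libraries allow, adjusted p = 0.00195 over 8 measures). J2 was higher behind YFC in 11 of 12 libraries, by 3.95 ± 4.72 points (exact p = 0.00244, adjusted p = 0.00651), with LFPRLR SMO replicate 7 as the exception at −2.08 points. The largest J2 difference, 17.4 points, was that of the small library LFPRLR SMO replicate 6, and without it the mean was 2.73 points. With the 3 pairs of libraries that share sequences averaged, J2 lost its call (4.19 points, exact p = 0.0195, adjusted p = 0.0521) and J3 did not (−5.17 points, adjusted p = 0.0156).

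J4 made up 1.35 ± 2.19 points more of YFC than of YYC translations (exact p = 0.0625, adjusted p = 0.1), higher in 10 of 12 libraries. Without LFPRLR SMO replicate 6 the J4 difference was 1.81 points with an adjusted p of 0.00977 in the same exact test, without YFC end 3 it was 1.87 points (adjusted p = 0.0336) and with the pairs averaged 1.02 points (adjusted p = 0.344). J1 differed by −0.055 ± 1.11 points (exact p = 0.862), and by −0.041 points with the pairs averaged. Weighted by reads J1 was lower behind YFC (−3.14 points, exact sign-flip test, adjusted p = 0.0107), whereas with each unique CDR3 counted once it was higher (0.542 points, adjusted p = 0.0179). When YFC and YYC translations were compared only among those with the same residues 1 to 20, J3 was −6.03 points lower (adjusted p = 0.00195) and J2 3.92 points higher (adjusted p = 0.0107, exact sign-flip tests) behind YFC. Weighted by reads, the differences grew to −9.77 points for J3 and 10.9 points for J2. No difference between the treatment groups was found in any of the 8 measures of YFC minus YYC (exact Mann–Whitney *U* tests, smallest p = 0.394).

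**Figure D4:**
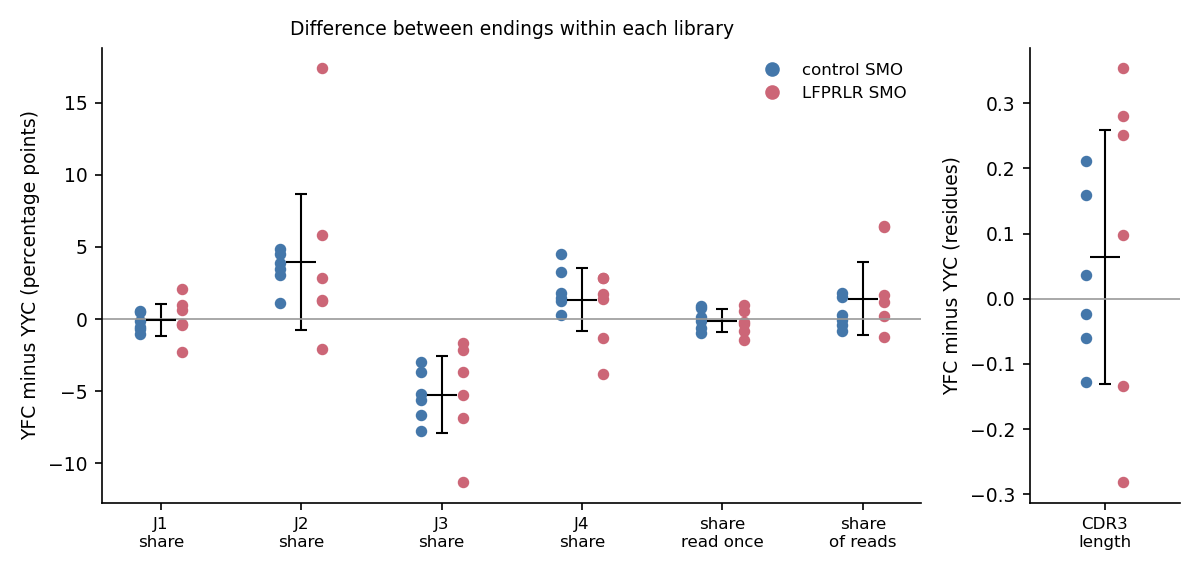
YFC minus YYC within each library, for the share of each J segment and of translations read once, for the YFC share of reads minus that of translations (left, percentage points) and for mean CDR3 length (right, residues). Points are libraries, and black bars are the mean and SD of 12, with J3 below 0 in every library.

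The first residues of CDR3 come largely from the last bases of the VH gene, and among the 5 leading YFC ends a start with lysine and arginine was most frequent on YFC end 3. Lysine and arginine (KR) opened 3.69% to 13.3% of the CDR3s behind YFC and 0% to 0.033% of those behind YYC, a contrast noticed after the values were seen and not tested. In total 5492 YFC translations started with KR, and between 40.4% and 66.7% of those of a library were on YFC end 3, with the remainder spread over many other ends. They were found on 5 to 87 VH ends of a library. KR opened 24.1% to 71.4% of the CDR3s on YFC end 3, 0% to 11.6% on YFC end 4, and at most 2.44%, 2.53% and 0.377% on YFC ends 1, 2 and 5. LFPRLR SMO replicate 6, with 15 KR translations, gave the 13.3%, the 66.7%, the 5 VH ends, the 71.4% and the 0% on YFC end 4. It held only 14 translations on YFC end 3 and 1 on YFC end 4. In the other libraries KR opened at most 47.3% of the CDR3s on YFC end 3. The codon before tyrosine 21 was GTG, as in the line of YFC end 3, in 95.4% to 100% of the KR sequences and in 4.42% to 11.01% of the other YFC sequences. In the leading version of YFC end 3, KR opened 42.6% to 63.6% of CDR3s.

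YFC sequences with KR differed from other YFC sequences in the remainder of the CDR3 too, again as a description. Their CDR3s averaged 8.82 to 10.5 residues against 10.9 to 11.7, and were shorter in 12 of 12 libraries. J2 made up 46.0% to 73.3% of them against 28.9% to 41.8%, and J3 6.67% to 24.6% against 18.4% to 28.4%, with the same direction in 12 of 12 libraries for each. They held 4.60% to 12.2% of the YFC reads. LFPRLR SMO replicate 6, with 15 KR translations, gave the 73.3%, the 6.67% and the 12.2%. In the other libraries J2 made up at most 59.3% and J3 at least 11.9% of the KR translations. Without YFC end 3 the J3 difference between the endings was −4.97 points and the J2 difference 3.35 points, both with an adjusted p under the threshold (0.00391 and 0.0156, exact sign-flip tests).

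Threonine as the first CDR3 residue was by contrast more frequent behind YYC. It opened 0.608% to 1.19% of CDR3s behind YFC and 6.13% to 11.9% of those behind YYC, a contrast noticed after the values were seen and not tested. In the leading version of YYC end 2, which differs from that of YFC end 1 only at bases 63 and 65, threonine opened 45.2% to 75.0% of CDR3s, whereas in the leading version of YFC end 1 it opened at most 0.739%. Both versions therefore shared 67 of their bases up to the cysteine codon and differed in what followed it. The contrast did not hold for every end. Threonine opened a median of 3.56% of CDR3s on YYC end 1 and 2.83% on YFC end 3. In the leading version of YYC end 3, which carried K1T and E16D relative to YFC end 1, the median was 0.257%.

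Over all members, CDR3 length differed between both endings by less than the spread between libraries. Mean length was 10.7 to 11.6 residues behind YFC and 10.7 to 11.6 behind YYC, with an SD among translations of 2.60 to 2.80 and 2.58 to 2.85 residues. The difference was 0.064 ± 0.195 residues (exact sign-flip test, p = 0.275, adjusted p = 0.367), positive in 7 of 12 libraries, and 0.045 residues with the pairs averaged. Among translations with the same residues 1 to 20, CDR3s behind YFC were 0.147 residues longer (exact sign-flip test, adjusted p = 0.0375), and without YFC end 3 they were 0.162 residues longer (adjusted p = 0.0293). Among single lengths, CDR3s of 6 residues made up 2.15% ± 0.671 of YFC and 3.29% ± 0.602 of YYC translations (SD, n = 12) and were rarer behind YFC in 12 of 12 libraries, a length picked after the values were seen. Translations read once made up 58.5% to 89.4% of YFC and 58.6% to 90.2% of YYC, a difference of −0.106 ± 0.792 points (exact p = 0.644) and of −0.092 points with the pairs averaged. With each unique CDR3 counted once, the share read once was 2.50 points higher behind YFC (exact sign-flip test, adjusted p = 0.00114). In this setting the reads of a CDR3 were summed over all VH ends of an ending. A library held 21 to 630 combinations of residues 1 to 20 with YFC and 77 to 2301 with YYC, so both shares are not directly comparable.

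Among YFC translations none of the following measures separated the treatment groups. Mean CDR3 length had a median of 11.07 residues with control SMO and 11.10 with LFPRLR SMO (p = 0.937, exact Mann–Whitney *U* test). The median share of J1 was 9.08% and 9.80% (p = 0.394), of J2 36.2% and 35.4% (p = 0.818), of J3 24.7% and 24.6% (p = 0.818) and of J4 31.8% and 30.2% (p = 0.310, exact tests). Translations read once had medians of 63.3% and 65.99% (p = 0.394, exact test). The adjusted p of these measures lay between 0.630 and 0.937, and between 0.762 and 1 with the pairs of libraries averaged, where no difference turned. A p above the threshold does not show that the groups were alike, and the smallest p that 6 against 6 libraries allow is 0.00216.

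Some CDR3s recurred behind YFC in many libraries, and some were expanded in few, with CDR3s 4, 5 and 6 below in both respects. In total 47582 different CDR3s were found behind YFC, 85.5% of them in 1 library, 205 in at least 6 libraries, 11 in at least 11 and 3 in all 12. The 5 found in most libraries, with ties broken by the summed share of reads, and each commonest YFC CDR3 that took up 5% or more of a library's YFC reads, are shown with their main nucleotide version. Capitals mark the codons of the cysteine of VH and the tryptophan of J on either side.
CDR3 1: TGTgcaagaggggggtttgcttacTGG
CDR3 2: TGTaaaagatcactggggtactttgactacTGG
CDR3 3: TGTgcaagaggggcttacTGG
CDR3 4: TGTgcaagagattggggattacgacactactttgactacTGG
CDR3 5: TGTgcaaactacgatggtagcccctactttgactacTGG
CDR3 6: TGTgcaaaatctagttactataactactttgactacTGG
CDR3 7: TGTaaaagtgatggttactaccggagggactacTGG
CDR3 8: TGTgcaagatcgtcaatggcttacTGG
CDR3 9: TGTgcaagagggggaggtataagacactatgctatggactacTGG
CDR3 10: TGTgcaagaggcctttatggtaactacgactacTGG

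CDR3s 1, 2 and 3 were found behind YFC in 12 of 12 libraries. They were short, with 7, 9 and 5 residues, and were encoded in several ways, with 20, 14 and 9 nucleotide versions. The main version held 61.7%, 31.2% and 78.7% of their reads, respectively. CDR3 1, joined to J3, held 0.116% to 2.62% of the YFC reads and was mostly on YFC end 2 (68.0% of its reads), while 41.2% of all its reads were on YYC. CDR3 2, which starts with KR and is joined to J2, held 0.051% to 0.763% and was on YFC end 3 in 74.2% of its reads, with 0.931% of its reads on YYC. CDR3 3 held 0.0037% to 0.763% and had 63.1% of its reads on YYC. In LFPRLR SMO replicate 6 each of these 3 rested on 1 read, which gave the 0.763%.

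CDR3s 4, 5 and 6 were each found in 11 libraries and tied in this number, and CDR3s 7 to 10 in 5 to 9. The expanded CDR3s were dominated by 1 nucleotide version each, with 98.3% or more of their reads for CDR3s 4 to 10. By number of versions they were not set apart, since CDR3 4 had 14 and CDR3 5 had 9. CDR3 4 held 23.1% of the YFC reads in LFPRLR SMO replicate 4 and likewise 23.1% in replicate 5, a pair of libraries that share sequences. In the other libraries it held at most 1.04%, and it was absent from control SMO replicate 3. CDR3 5 held 18.5% in control SMO replicate 5 and 14.0% in control SMO replicate 7, which also share sequences, and CDR3 6 held 4.005% and 5.81% in control SMO replicates 4 and 8, the remaining such pair. CDR3 5 reached 3.05% in LFPRLR SMO replicate 6, which was 4 reads. Outside these pairs and where found, CDR3 4 had 1 to 394 reads in a library, CDR3 5 had 2 to 417 and CDR3 6 had 1 to 25. Their presence in 11 libraries thus rested in part on few reads, and what these few reads reflect was not tested.

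CDR3s 5, 6, 8, 9 and 10 were mostly on YFC end 1, CDR3 4 on an end that carried A6V relative to it and CDR3 7 on YFC end 3. CDR3 7 held 9.04% in control SMO replicate 9 and 1.13% in control SMO replicate 4. CDR3 8 held 10.5% in LFPRLR SMO replicate 3, CDR3 9 held 6.83% in LFPRLR SMO replicate 7 and CDR3 10 held 12.5% in LFPRLR SMO replicate 8. Each of these last 3 held at most 0.295% elsewhere, apart from LFPRLR SMO replicate 6, where CDR3s 9 and 10 had 1 and 4 reads. Of the 7 expanded CDR3s, 5 were joined to J2, CDR3 8 to J3 and CDR3 9 to J4. A CDR3 of at least 5% of the YFC reads was found in 4 control SMO and 5 LFPRLR SMO libraries. CDR3s 4 to 10 were nearly confined to YFC, with 0.473% to 7.69% of their reads on YYC.

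**Figure D5:**
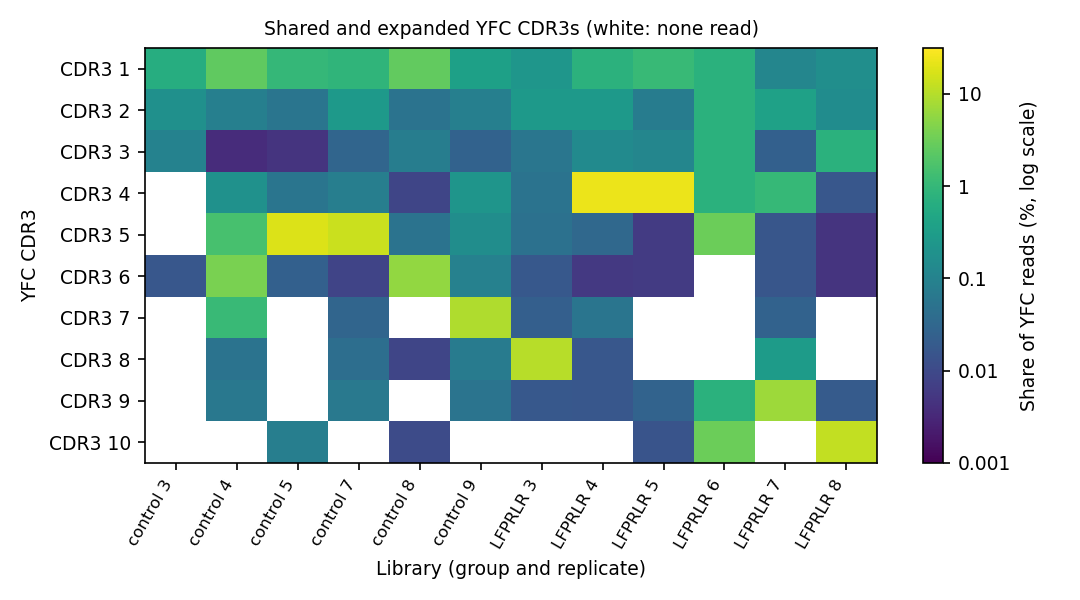
Share of the YFC reads of each library (log colour scale, white where none was read) held by the 10 CDR3s whose sequences are given, with CDR3s 1 to 5 chosen for the number of libraries and 6 to 10 for their size. CDR3s 1 to 3 appear in all 12 libraries at under 3%, and CDR3s 4 to 10 each reach their highest share in 1 or 2 libraries.

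Sequences that differed only at residue 22 were a small part. Between 0% and 6.91% of the YFC translations of a library had a counterpart that was identical but for tyrosine 22, and in 0% to 3.39% that counterpart had more reads. Both values of 0% were those of LFPRLR SMO replicate 6, with 113 YFC translations. The next lowest were 2.56% and 0.964%, in control SMO replicate 3. With the lower of each pair of such counterparts left out, J3 was −5.28 points and J2 4.002 points apart between the endings. The YFC share then differed between groups by 3.69 points.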

How the data were processed

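Libraries of IGH amplicons from 12 mice were grouped by the treatment in the labels. For each library the authors deposited whole-number read counts of unique nucleotide sequences and of their unique translations, not normalized. RNA was isolated with a Macherey-Nagel kit and libraries were sequenced on a MiSeq with 2 × 150 bases. How reads were merged, trimmed and filtered is not given in the sources used here.

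Members were found by residues 21 to 23 and the J motif in Python 3.11.15 (NumPy version 2.4.6, SciPy version 1.17.1), and figures were drawn with Matplotlib 3.10.9. CDR3 ran from the residue after the cysteine to the one before the tryptophan of J. Each unique translation was counted once, and precision follows from 490 or more YFC and YYC translations per library. Base counts used the nucleotide tables without undetermined bases in the VH end. Columns with lengths that the authors had added to the table of LFPRLR SMO replicate 5 were not used.

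Treatment groups were set against each other by their medians and the two-sided exact Mann–Whitney *U* test (924 arrangements), the study's test for mouse cohorts. YFC and YYC were compared within libraries by a two-sided exact sign-flip test over the 12 differences. Each family of 8 measures was adjusted by the Benjamini-Hochberg method, as were the 71 VH ends, and 1 measure of each family is not reported here. Ends were named if they were among the 5 commonest YFC or 2 commonest YYC ends or passed the adjusted test. CDR3s were named if they were among the 5 found in most libraries or held at least 5% of the YFC reads of a library. Other ends, codon 21, the KR and threonine starts and single lengths were chosen after their values were seen. The members and lists were chosen with earlier results of these data known. The member rule and the tests were tested on simulated data.

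Replicate numbers 3, 4, 5, 7 and 8 occur in both groups but mark different mice. The alternatives were weighting by reads, at least 2 reads, other definitions of a member, unique nucleotide sequences or CDR3s, removal of counterparts that differ at residue 22, equal depth (490 translations, 100 draws), comparison within the same residues 1 to 20, permutation within library sets, averaged library pairs, the replicate block and each library left out. Removal of YFC end 3 or of the 10 commonest CDR3s, and all settings for codon 21, were added after the data were seen.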

Additional observations from a re-analysis of the deposited data

Results flagged for a closer look

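Among 28 sets of 6 libraries (14 measures in each treatment group), 4 had a lowest or highest library that stood apart by Dixon's criterion, and chance gives about 1 in 20. Mean CDR3 length of YFC translations was 11.6 residues in control SMO replicate 3, against 10.9 to 11.2 in the other control libraries. The YYC translations of the same library averaged 11.58 residues, the highest YYC mean of the 12 libraries, so the length was not particular to YFC.

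The other 3 all concerned LFPRLR SMO replicate 6, the library with 113 YFC translations. Among its YFC translations J2 made up 46.0%, J3 16.8% and translations read once 89.4%. Among its YYC translations these shares were 28.6%, 28.1% and 90.2%, so the share read once was not particular to YFC. Its KR share of 13.3% was the highest of the 12 libraries and its 627 reads the lowest total. The part of its depth in these values was not tested.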

How the results depend on the processing

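No call was made between groups for the YFC share or for VH ends under any of the 28 and 16 alternatives run. For VH ends, an end that differed alone could not have passed after adjustment. In these alternatives the YFC share difference kept its direction, from 0.117 points with the replicate block (exact sign-flip test, p = 0.938) to 6.20 weighted by reads. It was 0.894 points with labels permuted within library sets and 3.48 to 3.89 with a library left out. Within library set 1 alone the direction was the opposite, with −1.74 points against 3.52 within set 2.

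Of the uncalled differences between groups, CDR3 length became −0.117 residues with each unique CDR3 once and −0.084 to 0.140 with a library left out. J1 became −0.466 points weighted by reads and 0.365 to 1.07 with a library left out. With each unique CDR3 once J1 was 0.801 points (exact Mann–Whitney *U* test, p = 0.00866, adjusted p = 0.0693). J2 became 5.72 points weighted by reads, 0.231 within library sets and −1.29 to −0.304 with a library left out. J3 became 1.001 points within library sets, 2.44 with the replicate block and −0.4997 to 0.387 with a library left out. J4 moved from −1.63 points to −6.09 weighted by reads (exact p = 0.0152, adjusted p = 0.121) and −0.791 with the replicate block, and the share read once to 0.858 to 4.46 with a library left out. The same-numbered mice correlated at −0.411 to 0.211, which does not show that the numbers pair them. The replicate block rested on 5 pairs, where the p of an exact sign-flip test cannot fall under 0.0625, so it could make no call.

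Of YFC minus YYC, J3 kept its call under all 20 alternatives and J2 under 19, with 4.19 points for averaged pairs as the exception. J1 became −3.14 points weighted by reads, 0.542 with unique CDR3s, 0.822 within the same residues, 0.561 without the 10 commonest CDR3s and −0.249 to 0.149 with a library left out, and passed the exact test in the first 2 of these, in opposite directions. Length became −0.029 residues with unique CDR3s, 0.147 within the same residues and 0.162 without YFC end 3, and passed in the latter 2. J4 became 1.87 points without YFC end 3 and 1.06 to 1.81 with a library left out, and passed without that end and without LFPRLR SMO replicate 6. The share read once became 2.50 points with unique CDR3s, where it passed, 0.143 without YFC end 3 and −0.203 to 0.016 with a library left out. The share of reads became 4.26 points within the same residues, 0.773 without the 10 commonest CDR3s, 0.669 without YFC end 3 and 0.958 to 1.65 with a library left out, and passed in the first 2 of these and without LFPRLR SMO replicate 3. The cause of these changes was not tested. LFPRLR SMO replicate 6, with 490 YFC and YYC translations, limits what can be read from its shares.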
